A study of Mus with 2 samples.

Results

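Solute carriers are the membrane proteins that move sugars, amino acids, ions, vitamins and metals across cell membranes, and they are named by family (Slc1, Slc2 and so on), each family having its own kind of substrate. In the kidney, the proximal tubule takes back most of what the glomerulus filters. Carriers in its apical brush border pull a solute in with sodium or protons, and carriers in its basolateral membrane pass the solute on to the blood, while the sodium pump keeps the gradient that drives the uptake. The genes described here were taken by name: every gene in the authors' deposited table whose symbol starts with Slc and a digit, apart from the organic ion carriers of family Slc22, the mitochondrial carriers of family Slc25, and the distal salt transporter genes Slc12a1 and Slc12a3. This gave 128 genes of 8191 in the table, in 352 of its 20111 entries.

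The table compares whole-kidney cells of young with those of senescent C57BL/6 mice, read out by single-cell RNA sequencing in droplets. There were 2 libraries, 1 for each group. The cell numbers stated are 10895 (young) and 4408 (senescent). The strain is the only genotype given, and no treatment is named for either group. The ages, the sex and the number of mice per library are not known from the sources used here. Each value is the authors' mean of scaled expression per cell in a cluster of 1 library, given here as the mean, without a spread. The 7 clusters carry the authors' labels, which are PT, LOH and endo and, for immune cells, Marco, T, B and Neutro. A gene is listed in a cluster only with a p-value under 0.05 and a log2 fold change of 0.36 or more in size, so a gene that is not listed cannot be called unchanged. The p-values measure spread between cells and not between mice, so no difference below has a test over animals. Cell numbers per cluster and depth are unknown.

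The fixed cell type markers were checked against the labels as far as the table lists them. All 12 macrophage markers were listed in Marco, all 10 T cell markers in T and 6 of 8 B cell markers in B, and each of these had a higher mean in the senescent library. In endo 0 of 13 endothelial markers were listed, against 12 of 25 proximal tubule markers other than solute carriers, so no listed marker bears on the endothelial label of that cluster. Proximal tubule markers were listed in every large cluster: all 25 in Marco, 24 each in T and B, 21 in LOH and 20 in PT.

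Of the 128 solute carrier genes, 75 were listed in PT, 84 in T, 76 in Marco, 55 in B, 40 in LOH, 19 in endo and 3 in Neutro. The largest groups by substrate of the family were amino acids with 24 genes, metals with 17, sugars with 14, nucleotide sugars and acetyl-CoA with 14, and monocarboxylates with 11. A family number is only a rough guide to substrate, as family Slc5 holds lactate and inositol carriers beside its sugar carriers, and family Slc17 holds organic anion carriers beside its phosphate name. In the authors' annotation 89 of the 128 genes carried the Gene Ontology term for the plasma membrane. A further flag marked 26 that belong to families taken here as acting mainly inside the cell or are no transporter. This flag goes by family number. It takes in Slc30a1 and Slc11a2, which carry the plasma membrane term, and leaves out the lysosomal or endosomal carriers Slc15a3, Slc15a4 and Slc17a5. The 2 that are no transporter are Slc9a3r1, the scaffold protein NHERF1, and Slc7a6os, a gene on the strand opposite Slc7a6.

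In the PT cluster, most listed solute carriers had higher means in the senescent library. Of 75 listed, 67 were higher and 8 were lower, a share of 89.3% higher and 10.7% lower against 78.4% and 21.6% of all 5037 genes listed there. In the authors' deposited table, 46 passed both thresholds used here (adjusted p no higher than 0.05, with a log2 fold change of 1 or more in size) as higher and 3 as lower. These are 61.3% and 4% of the members, against 57.2% and 5.6% of all listed genes, so the count of higher carriers was close to the background of that cluster. The median log2 ratio of the means, after adding 1 to each, was 0.30 over the members and 0.23 over all listed genes. Markers of other cells differed in this cluster too. Thick ascending limb markers were lower in PT in all 4 listed cases, with a summed mean of 6.54 (young) and 0.689 (senescent). Erythroid markers were lower in all 3 listed cases, at a sum of 6.86 and 3.28, and the neutrophil markers S100a8 and S100a9 were higher, at a sum of 0.629 and 2.05. Proximal tubule markers other than solute carriers did not share the direction of most carriers. Of 20 listed in PT, 8 were higher and 12 lower, with a median log2 ratio of -0.58 after adding 1 and a summed mean of 1090.1 and 369. Without Kap, an androgen-induced gene that made up most of the young sum, it was 371 and 348. Miox and Ttc36 were lower, at 54.5 and 20.4 and at 43.3 and 17.2, and Gpx3 was higher, at 62.7 and 126. The part of these markers in the carriers' values was not tested.

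**Figure D1:**
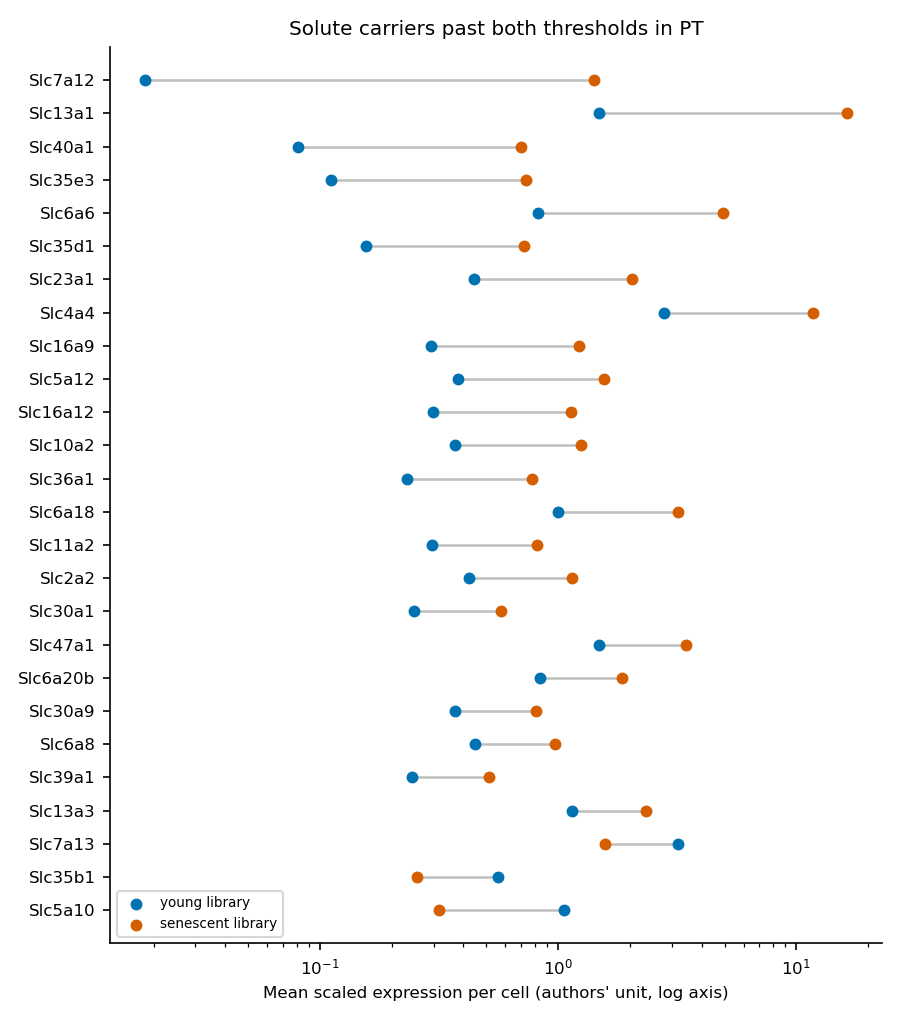
Mean scaled expression per cell in PT for the 26 solute carrier genes that passed both thresholds and had a mean of 0.5 or more in either library. The horizontal axis is logarithmic, blue points are the young and orange points the senescent library, and 23 genes lie higher and 3 lower in the senescent library.

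Sulfate and dicarboxylate carriers had 4 of 4 listed members higher in PT and 2 past both thresholds. Of all genes listed in PT, 78.4% were higher and 57.2% passed both thresholds as higher. Slc13a1, the apical sodium-sulfate cotransporter, had a young mean of 1.48 and a senescent mean of 16.3. Slc26a1, the basolateral sulfate exchanger that completes this route, had means of 0.434 and 0.823, a 1.90-fold difference. The dicarboxylate carriers Slc13a3, of the basolateral membrane, and Slc13a2, of the apical membrane, had means of 1.14 and 2.33, and of 0.249 and 0.426.

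Carriers of bicarbonate and protons went both ways. Slc4a4, the basolateral sodium-bicarbonate cotransporter that returns reclaimed bicarbonate to the blood, had means of 2.78 and 11.8, a 4.23-fold difference. Slc9a3, the apical sodium-proton exchanger NHE3 at the other side of the cell, had means of 0.163 and 0.432. Slc9a8, a further sodium-proton exchanger, was lower, at 0.422 and 0.263. Slc9a3r1, whose product anchors NHE3 and the phosphate carrier Slc34a1 in the brush border, was lower as well, at 2.62 and 1.91.

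Amino acid carriers formed the largest group, with 20 of 21 listed members higher in PT and 10 of them past both thresholds. Among all genes listed in PT, 57.2% passed both thresholds as higher, so the share of amino acid carriers was below the background. All 6 listed members of family Slc6, the sodium- and chloride-coupled carriers, were higher, and 5 passed both thresholds. The taurine carrier Slc6a6 had means of 0.822 and 4.90, a 5.96-fold difference. The brush border carriers of neutral amino acids Slc6a18 and Slc6a19 differed in size, at 0.995 and 3.17 for Slc6a18 and at 0.615 and 0.900 for Slc6a19. These genes are neighbours on chromosome 13, with 1721 bases between them. Slc6a20b had means of 0.841 and 1.86. It has a close relative, Slc6a20a, and how the authors' counting split reads between such copies was not given. The creatine carrier Slc6a8 had means of 0.448 and 0.972.

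Amino acid carriers that work as dimers of a heavy and a light subunit showed smaller differences, apart from 2 light subunits that went opposite ways. The apical heavy subunit Slc3a1 had means of 1.71 and 2.29, and its light partner for cystine and basic amino acids, Slc7a9, had means of 0.700 and 1.19. The basolateral heavy subunit Slc3a2 had means of 0.532 and 0.918, with its partners Slc7a7 at 0.659 and 1.09 and Slc7a8 at 0.405 and 0.737. None of these 5 genes reached a log2 fold change of 1. Slc7a13, another light partner of Slc3a1 in the late proximal tubule, was 2.03-fold lower, at 3.18 and 1.57. Slc7a12, an amino acid carrier of the same family, was 76.4-fold higher, at 0.0184 and 1.41, the highest fold of any solute carrier in PT.

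Slc7a13 is known to be higher in male and Slc7a12 in female mouse kidney. Other genes with a known sex difference moved in PT as well. Kap had means of 719 and 21.4, Acsm3 had means of 1.49 and 0.0215, and Prlr, the prolactin receptor gene, had means of 0.0252 and 2.27. The part of sex in these values was not tested.

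Sugar carriers were split, with 5 of 7 listed members higher and 2 lower. Slc5a2, the apical glucose cotransporter SGLT2 of the early proximal tubule, was lower, at 1.13 and 0.744. Slc5a1, the related cotransporter SGLT1 of the late tubule, was higher, at 0.118 and 0.283, and so was Slc2a2, the basolateral glucose exit carrier GLUT2, at 0.421 and 1.14. The mannose and fructose carrier Slc5a10 was 3.36-fold lower, at 1.06 and 0.316, and its relative Slc5a9 was 7.56-fold higher, at 0.0602 and 0.455. Slc5a12, a sodium-coupled lactate carrier, had means of 0.380 and 1.56, and the inositol carrier Slc5a11 had means of 0.210 and 0.352.

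Phosphate carriers also differed in direction. Slc34a1, the main sodium-phosphate cotransporter of the brush border, was 1.37-fold lower, at 25.7 and 18.7. Slc20a1, a sodium-phosphate carrier found in most cells, was 7.00-fold higher, from a low mean of 0.0414 to 0.290. The group held Slc17a5, a lysosomal sialic acid exporter, at 0.195 and 0.420.

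All 7 listed monocarboxylate carriers of family Slc16 were higher, 4 past both thresholds, a share close to the 57.2% of all genes listed in PT. Slc16a9 had means of 0.294 and 1.22 and the creatine carrier Slc16a12 had means of 0.299 and 1.13. Slc27a2, which encodes a very long chain acyl-CoA synthetase and fatty acid carrier, had means of 10.4 and 17.5. The vitamin C carrier Slc23a1 was 4.62-fold higher, at 0.444 and 2.05. Slc47a1, which exports organic cations into the urine, was 2.32-fold higher, at 1.49 and 3.46.

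All 9 listed metal carriers were higher and all 9 passed both thresholds, where 57.2% of all genes listed in PT did so as higher. Slc40a1, the iron exporter ferroportin, was 8.61-fold higher, at 0.0812 and 0.699. The iron importer Slc11a2 had means of 0.296 and 0.818, and Slc39a14, which imports zinc and iron, had means of 0.0606 and 0.285. The zinc exporter of the plasma membrane Slc30a1 had means of 0.247 and 0.577. Importers and exporters of metals had the same direction. Of the nucleotide sugar carriers of family Slc35, which serve the Golgi apparatus and the endoplasmic reticulum, 7 of 8 were higher, among them Slc35e3 at 0.111 and 0.731 and Slc35d1 at 0.156 and 0.721. Slc35b1 was lower, at 0.556 and 0.256.

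Of 3 listed bile acid carriers, 2 were higher and 1 was lower. The apical bile acid importer Slc10a2 was 3.38-fold higher, at 0.369 and 1.25, while Slc51a, one subunit of the basolateral exporter, was 1.90-fold lower, at 0.652 and 0.343. Its partner subunit Slc51b was not listed in PT. Slc10a5, a relative of Slc10a2 annotated to neither side, was 2.63-fold higher, at 0.186 and 0.488.

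**Figure D2:**
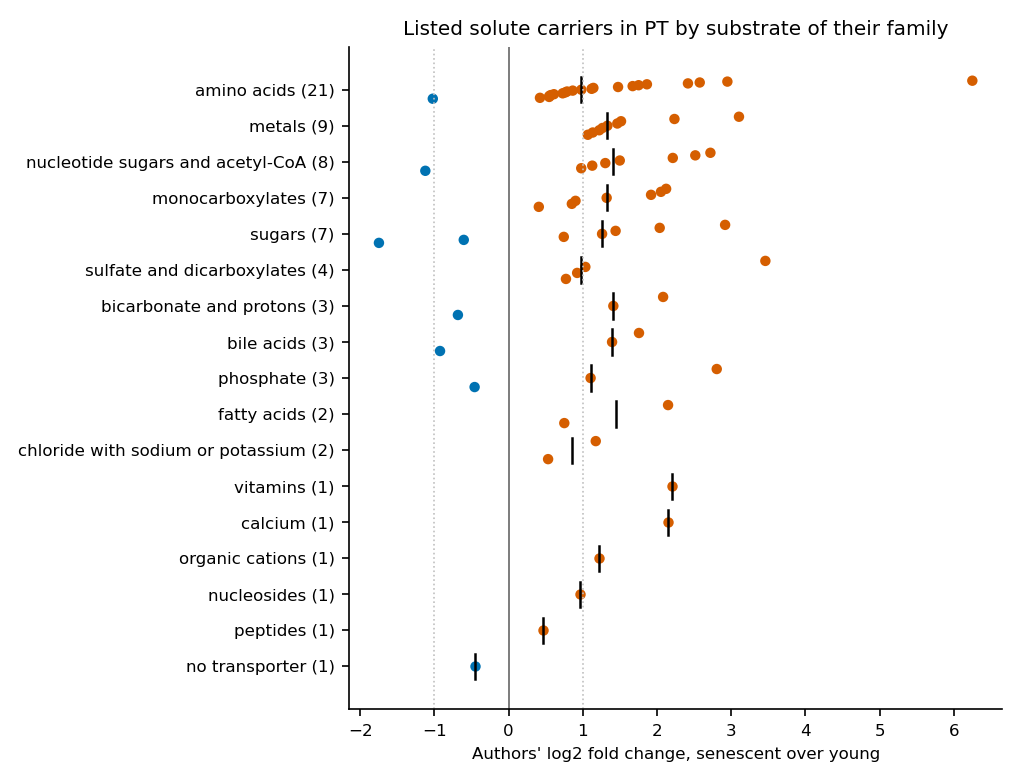
Log2 fold changes (senescent over young) in the authors' deposited table for the 75 solute carrier genes listed in PT, by substrate of the family, with the number of genes in brackets. Each point is a gene, orange for higher and blue for lower, black ticks are medians and dotted lines mark -1 and 1. Every group of 4 or more genes has its median above 0, and blue points appear in the groups for amino acids, nucleotide sugars, sugars, bicarbonate and protons, bile acids and phosphate and for Slc9a3r1.

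Direction in PT could also be read against the annotated side of the cell. As background, 89.3% of the 75 carriers and 78.4% of all 5037 genes listed in PT were higher. Of 17 genes annotated to the apical membrane or brush border alone, 13 were higher and 4 lower. Of 10 annotated to the basolateral membrane alone, 9 were higher and 1 was lower, and all 8 annotated to both sides were higher. Median log2 ratios after adding 1 were 0.30, 0.34 and 0.46 in these groups and 0.25 for the 40 genes annotated to neither. Of 24 genes annotated to sodium transport, 20 were higher, and of the other 51 genes, 47 were higher. These shares were not tested against each other.

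Genes that support carrier function were mostly higher in PT, as were 78.4% of all genes listed there. Of 36 symbols for pumps, scaffolds, endocytic receptors, channels and regulators, 26 were listed, 21 higher and 5 lower. Past both thresholds were 15 higher and 1 lower, against 57.2% and 5.6% of all listed genes, so these counts were close to the background of that cluster. This list contains Slc9a3r1. The sodium pump subunit gene Atp1b1 had means of 4.55 and 9.45, whereas its small modulator Fxyd2 was 2.53-fold lower, at 142 and 56.2. Sgk1, a kinase that regulates sodium transport, had means of 0.581 and 3.83, and Nedd4l, a ubiquitin ligase that it controls, had means of 0.137 and 0.767. The potassium channel gene Kcnj15 had means of 1.61 and 5.04. The endocytic receptor genes Lrp2 and Cubn, which are also among the 8 higher proximal tubule markers, had means of 6.08 and 13.9, and of 1.18 and 2.95. The transcription factor gene Hnf4a, which controls many proximal tubule genes, had means of 1.21 and 2.09, and the carbonic anhydrase gene Car4 was lower, at 3.18 and 1.68.

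In LOH, the cluster labelled for the loop of Henle, the listed solute carriers were mostly those of the proximal tubule and were mostly lower. Of 40 listed, 11 were higher and 29 lower, shares of 27.5% and 72.5% against 47.8% and 52.2% of all 1761 genes listed. In the authors' deposited table, 0 were higher and 5 lower past both thresholds, which is 0% and 12.5% of the members against 2.16% and 6.87% of all listed genes. The 5 were Slc7a13 (1.98 and 0.178), Slc34a1 (11.3 and 2.71), Slc27a2 (5.89 and 2.14), Slc5a2 (1.06 and 0.135) and Slc17a3 (1.02 and 0.279), a urate and organic anion carrier. Proximal tubule markers other than solute carriers moved with them. All 21 listed of 25 were lower, their summed mean being 321 (young) and 29.5 (senescent), or 119 and 27.9 without Kap, and their part in these values was not tested.

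The higher means in LOH belonged to 11 carriers, of which 0 had a passing adjusted p by the authors' deposited table. Slc5a3, an inositol carrier that protects medullary cells from high salt, had means of 3.94 and 6.34. Slc16a7, a lactate and pyruvate carrier, had means of 3.37 and 5.26. The nucleoside carrier Slc29a1 had means of 0.0677 and 0.299, and ferroportin Slc40a1 had means of 0.160 and 0.509, the same direction as in PT. Thick ascending limb markers, those of the loop itself, and neutrophil markers, those of other cells, were higher beside them. Of 8 thick ascending limb markers the table listed Umod (47.6 and 148) and Wfdc15b (21.4 and 28.7) in LOH, Umod past both thresholds. The neutrophil markers S100a8 and S100a9 had a summed mean of 0.0575 and 5.42, neither with a passing adjusted p. The part of these markers in the higher carriers was not tested.

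In endo, 9 of 19 listed solute carriers were higher and 10 lower, where 48.2% and 51.8% of all listed genes were. Of the 19, 0 passed both thresholds in either direction in the authors' deposited table (0.389% and 0.584% of all 1028 listed genes). Of the 13 also listed in PT, 12 had the same direction as there. The 1 that was higher in PT and lower in endo is 7.69% of the 13, and 0% went the reverse way. Of all 702 genes listed in both clusters, these shares were 10.4% and 1.71%, so the carriers were close to the background. Slc13a1 had means of 5.45 and 15.0, Slc6a6 had 1.59 and 5.76, Slc23a1 had 0.197 and 1.40, and Slc6a18 had 0.589 and 1.95. Slc7a13 had means of 2.29 and 0.491, Slc34a1 had 17.0 and 11.5, and Slc5a10 had 0.955 and 0.197. The exception was Slc35a5, at 0.435 and 0.242 in endo and at 0.101 and 0.248 in PT. These are carriers of the proximal tubule. In the senescent library the means of the 13 in endo had a median of 78.1% of those in PT. In the young library this median was 59.2%, with 3 of the young values in endo at 0. With only the 4 members at a young mean of at least 1 in PT, the order was reversed, at 61.9% (senescent) and 81.1% (young). Proximal tubule markers other than solute carriers were 2 higher and 10 lower in endo, with a summed mean of 466 and 203, or 172 and 199 without Kap, and their part in these values was not tested. Slc14a1, a urea carrier, had means of 0.178 and 0.0673. The zinc exporter Slc30a1 had a young value listed at 0 and a senescent mean of 0.520.

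In Marco, the macrophage cluster, 4 solute carriers were higher and 42 were lower past both thresholds in the authors' deposited table. These are 5.26% and 55.3% of the 76 listed members, against 22.9% and 23.6% of all 4462 listed genes. Listed members were higher in 21 and lower in 55 cases, where 58.3% and 41.7% of all listed genes were. The median log2 ratio after adding 1 was -0.37 over the members and 0.23 over all listed genes.

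The 4 higher carriers are all known from phagocytes or from glycolytic cells, and none of them was listed in PT. Slc11a1, the metal pump NRAMP1 of the phagosome, was 17.5-fold higher, at 0.0652 and 1.14. Slc15a4 and Slc15a3, which move histidine and peptides out of lysosomes and endosomes, had means of 0.0638 and 0.535, and of 0.0806 and 0.445. Slc16a3, the lactate exporter MCT4, had a young value listed at 0 and a senescent mean of 0.308. Listed with a higher mean but without passing the adjusted p were 17 more, among them the sodium-calcium exchanger gene Slc8a1 (0.0769 and 0.348) and the amino acid carrier Slc43a2 (0.244 and 0.642). The 12 macrophage markers moved with these genes, all of them past both thresholds, and their summed mean was 33.05 (young) and 198 (senescent). Neutrophil markers were higher in Marco as well, in 4 of 4 listed cases with 2 past both thresholds, at a summed mean of 0.0802 and 7.06. S100a8 was listed at 0 in the young library and had a senescent mean of 4.34. The part of either list in the higher carriers was not tested.

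**Figure D3:**
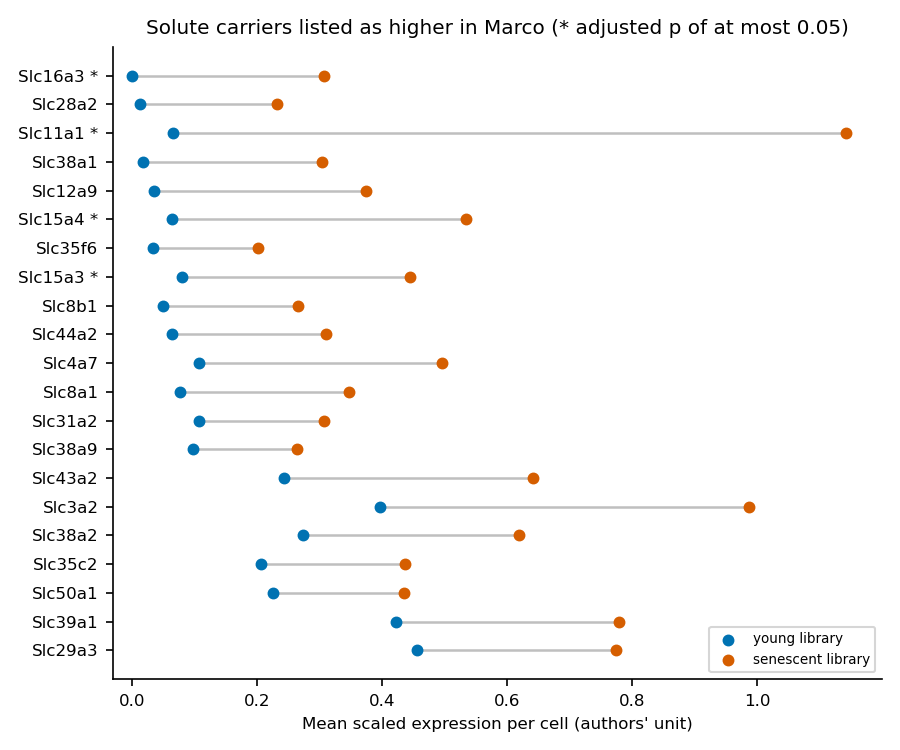
Mean scaled expression per cell in Marco for the 21 solute carrier genes listed there as higher in the senescent library. Blue points are the young and orange points the senescent library, on a linear axis, and stars mark the 4 genes with an adjusted p of at most 0.05 in the authors' deposited table.

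The 42 lower carriers in Marco were led, by young mean, by carriers known from the proximal tubule, of its apical and basolateral sides. Slc34a1 had means of 21.9 and 1.62, a 13.5-fold difference, and Slc27a2 had means of 19.7 and 1.33, a 14.8-fold difference. Slc7a13 was 51.2-fold lower, at 5.42 and 0.106, and Slc4a4 was 7.05-fold lower, at 5.84 and 0.828. The urate and organic anion carriers Slc17a1 and Slc17a3, neighbours on chromosome 13 with 6905 bases between them, had means of 3.62 and 0.339, and of 3.03 and 0.145. The sodium-coupled lactate carrier Slc5a8 had means of 2.13 and 0.106. The zinc carrier Slc30a2 had a young mean of 0.217 and a senescent value listed at 0. Proximal tubule markers other than solute carriers went the same way in all 25 members, and their summed mean was 947 (young) and 48.3 (senescent), or 306 and 46.1 without Kap, and their part in the lower carriers was not tested.

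T and B held no solute carrier that was higher past both thresholds. Of 84 members listed in T, 0 were higher and 31 lower by the authors' deposited table, which is 0% and 36.9% against 3.85% and 20.7% of all 4368 listed genes. Of 55 in B, 0 were higher and 14 lower by the authors' deposited table, which is 0% and 25.5% against 2.79% and 15.5% of all 3077 listed genes. Without thresholds, 12 were higher and 72 lower in T, where 44.8% and 55.2% of all listed genes were, and 1 was higher and 54 lower in B, where 28.2% and 71.8% were. The exception in B was Slc38a2, a carrier of neutral amino acids that cells induce when amino acids are scarce, with means of 0.614 and 2.42.

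The lists of lower carriers in the immune clusters, which come from the same pair of libraries, overlapped. Of the 42 in Marco and the 31 in T, 28 were in both lists, which is 66.7% of the first and 90.3% of the second. Over all genes, 700 of the 1051 lower in Marco and the 903 lower in T were shared, which is 66.6% and 77.5%, so the share of the Marco list was that of the background. Of these 28 genes, 12 were lower past both thresholds in B as well, an overlap that was not counted over all genes. Among the 12 are Slc34a1, Slc27a2, Slc7a13, Slc4a4, Slc17a1, Slc17a3, Slc3a1, Slc47a1, Slc5a8, Slc5a10 and Slc37a4, the last a glucose-6-phosphate carrier of the endoplasmic reticulum. In T, Slc34a1 had means of 21.3 and 1.37 and Slc27a2 had 15.3 and 1.30. In B, these genes had means of 17.0 and 1.48, and of 13.6 and 1.42. Slc5a10 had means of 0.747 and 0.0302 in T, and in B it had a young mean of 0.682 and a senescent value listed at 0. Proximal tubule markers other than solute carriers were lower throughout, in 24 of 24 listed both in T and in B, with summed means of 776 and 39.2 in T and of 798 and 46.3 in B, or 271 and 36.4, and 299 and 45.1, without Kap, and their part in these values was not tested.

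Slc7a13 was the clearest case of a carrier that went 1 way everywhere. It was lower in all 6 clusters that listed it, at 3.18 and 1.57 in PT, 1.98 and 0.178 in LOH, 2.29 and 0.491 in endo, 5.42 and 0.106 in Marco, 5.81 and 0.145 in T and 3.45 and 0.113 in B. Slc34a1 and Slc5a10 were lower in the same 6 clusters. Slc7a13 and Slc34a1 passed the adjusted p in 5 of these, all but endo. Slc5a10 passed it in 4, all but endo and LOH. Of the 43 solute carriers listed in 4 or more clusters, 11 were lower in each cluster that listed them, 31 went both ways, and 1, Slc38a2, was higher in each. The matching counts were not made over all genes. Slc38a2 had means of 0.120 and 0.436 in PT, 0.543 and 1.00 in LOH, 0.274 and 0.619 in Marco and 0.492 and 1.09 in T, beside the values in B above. It passed the adjusted p in PT alone of these 5 clusters.

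**Figure D4:**
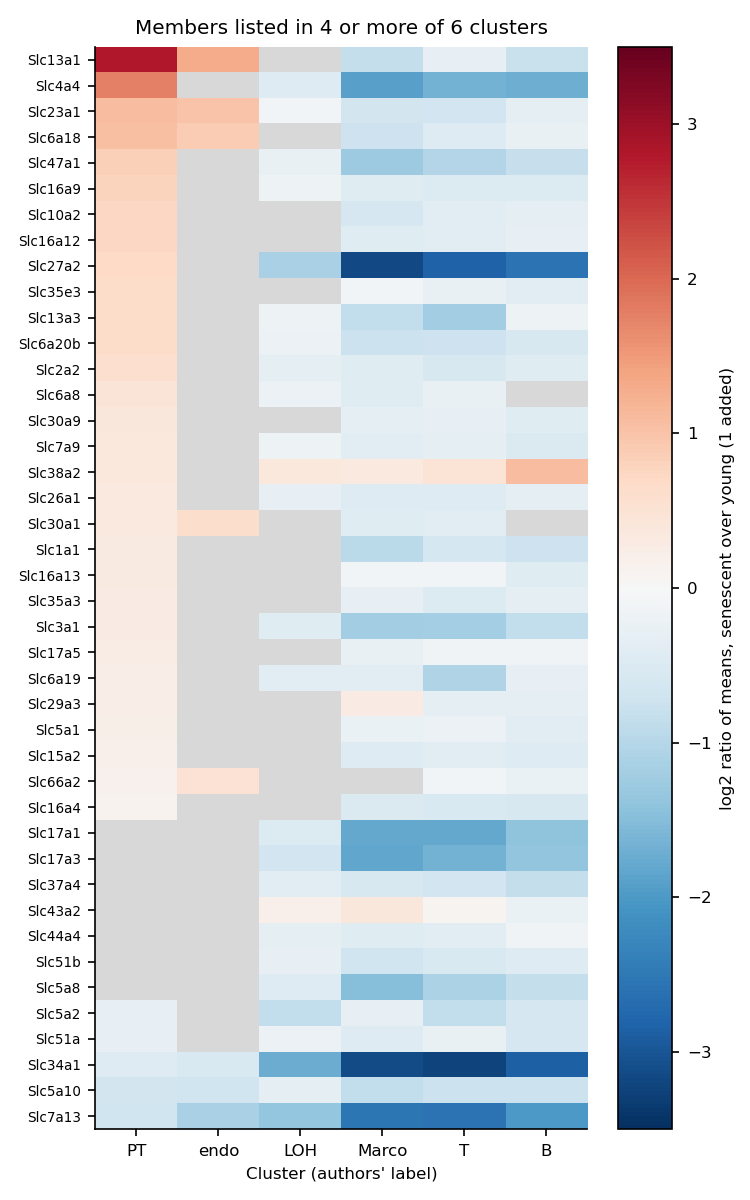
Log2 ratio of the means, senescent over young with 1 added, for 42 of the 43 solute carrier genes listed in 4 or more clusters (rows) in 6 clusters (columns). Red is higher and blue is lower in the senescent library, and grey means not listed. Most genes that are red in PT are blue in Marco, T and B, while the row of Slc38a2 is red in each cluster that lists it and that of Slc7a13 is blue in all 6.

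Among carriers listed both in PT and in an immune cluster, most were higher in PT and lower in the other. Of 44 members listed in both PT and Marco, 32 were higher in PT and lower in Marco, and 0 the reverse. The corresponding counts were 45 of 59 with T, 32 of 40 with B and 16 of 24 with LOH, again with 0 the reverse, but 1 of 13 with endo. These are 72.7% for Marco, 76.3% for T, 80% for B and 66.7% for LOH, where 27.8%, 33.9%, 37.1% and 12% of all genes listed in both clusters were higher in PT and lower in the other. As a share of all 67 carriers higher in PT, listed in the other cluster or not, they are 47.8%, 67.2%, 47.8% and 23.9%. Only 8 carriers were lower in PT, so few could show the reverse. Of all genes listed in both clusters, 4.37% showed the reverse with Marco, 5.03% with T, 3.14% with B and 2.63% with LOH. With endo, 7.69% of carriers were higher in PT and lower in endo, against 10.4% of all genes. These shares were not tested against each other. Slc13a1 had means of 1.48 and 16.3 in PT, and of 2.38 and 0.885 in Marco, 1.57 and 1.10 in T and 2.74 and 1.19 in B. Slc4a4 had means of 2.78 and 11.8 in PT, and of 4.46 and 0.749 in T and 4.27 and 0.600 in B. Slc23a1 had means of 0.444 and 2.05 in PT, and of 0.776 and 0.137 in Marco and 0.792 and 0.125 in T.

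The level of a carrier outside PT was therefore set against its level in PT in the same library. This covers only members listed in both clusters, so genes that differed between the libraries in each. In the young library the median was 133% of the PT mean for Marco, 123% for T, 109% for B, 71.6% for LOH and 59.2% for endo. The value for B was 66.2% and that for endo was 81.1% with members at a young mean of at least 1 in PT only. In the senescent library the median was 9.48% for Marco, 9.86% for T, 7.66% for B, 13.6% for LOH and 78.1% for endo. The senescent value for endo was 61.9% with members at a young mean of at least 1 in PT only, so its order between libraries was reversed. In the young library 30 of 44 members had a higher mean in Marco than in PT, against 5 of 44 in the senescent library. These percents and counts were not computed over all genes, so they cannot be called particular to carriers. Slc4a4 in Marco stood at 210% of PT (young) and 7.04% (senescent), and Slc27a2 at 189% and 7.58%. Slc38a2 stood apart, with means in Marco at 229% and 142% of those in PT and in B at 513% and 556%.

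**Figure D5:**
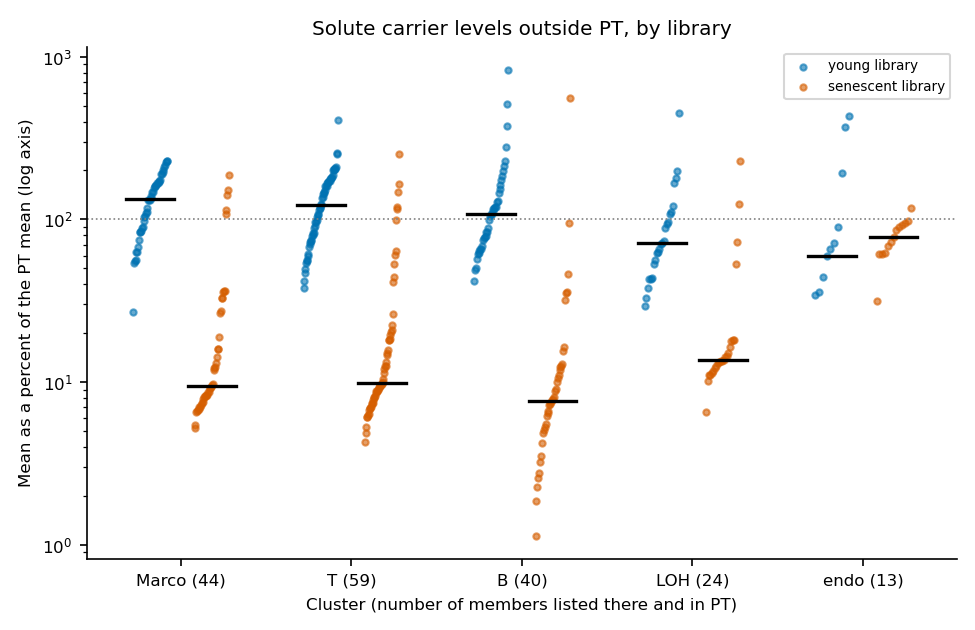
Mean of each solute carrier gene in a cluster as a percent of its mean in PT of the same library, on a logarithmic axis, for the members listed in both. Blue points are the young and orange points the senescent library, black bars are medians, the dotted line is 100%, and means of 0 are in the medians but not drawn. The medians in Marco, T and B lie between 109% and 133% for the young library (66.2% in B with members at a young PT mean of at least 1 only) and between 7.66% and 9.86% for the senescent one.

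Of the 128 genes, 53 were not listed in PT, and some of these were lower elsewhere. Slc17a1 and Slc17a3, Slc5a8, the acetyl-CoA carrier Slc33a1, Slc37a4, the choline carrier family gene Slc44a4, Slc51b and the monoamine carrier Slc18a1 were each lower in Marco and T past both thresholds without being listed in PT. Slc18a1 had means of 0.474 and 0.0340 in Marco and of 0.496 and 0.00722 in T. The levels of these carriers in PT were not analysed here. Over all genes, 700 were lower in both Marco and T past both thresholds. How many of those were not listed in PT was not counted.

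In Neutro 3 solute carriers were listed, all lower (as were 93.7% of all listed genes, with 6.35% higher), and 0 passed both thresholds in the authors' deposited table, as for all 378 genes listed there (0%). Slc43a2 had means of 2.27 and 0.134, Slc7a6os had 1.12 and 0.0264, and Slc30a2 was listed at 2.24 and at 0.

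All 128 genes were found in the RefSeq annotation of mouse build GRCm38.p6, the same build as mm10, and each mean is for the whole gene. Slc13a1 lies on chromosome 6 from 24088283 to 24168119 and Slc4a4 on chromosome 5 from 88793858 to 89239656. Slc7a12 lies on chromosome 3 from 14480697 to 14505819 and Slc7a13 on chromosome 4 from 19818727 to 19842213, so these relatives are not neighbours. Slc34a1 lies on chromosome 13 from 55399622 to 55414695, Slc27a2 on chromosome 2 from 126553024 to 126588243 and Slc11a1 on chromosome 1 from 74375014 to 74386057. Each is annotated as protein coding. Slc38a1 and Slc38a2 are neighbours on chromosome 15, with 43953 bases between them. In Marco both had higher means, with Slc38a1 at 0.0175 and 0.304, and in T Slc38a1 had means of 0.232 and 0.844, and neither passed the adjusted p in these clusters.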

How the data were processed

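The authors deposited 1 table that compares the libraries in 7 clusters. Its group columns hold a signal, the authors' mean of scaled expression per cell, with a scale factor that is not stated. They were assigned to young and senescent by the descriptions in the labels. The table's own name for the comparison has no stated meaning and does not say young or senescent, so each direction rests on those descriptions alone. Per the submitters' processing notes, Cell Ranger 2.1.1 and build mm10 were used. How cells were filtered and clustered, how doublets and free RNA were treated and which test was used is not given in the sources used here. All but 1 of the deposited log2 fold changes equal the log2 ratio of the means with 0.0001 added, within 0.01. The p-value column deposited by the authors holds only values under 0.05, and the adjusted p-values, headed as a false discovery rate, equal the p-value times about 32574 (median), as under Bonferroni. No counting interval could be had without depth, and no test was run on 1 library per group.

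Computed here were counts of members with a deposited adjusted p up to 0.05 and a log2 fold change of 1 or more in size, ratios of means (folds), medians of the log2 ratio with a pseudocount of 1 over genes whose larger mean was 0.1 or more, and percents of the PT mean. The code was tested on simulated data. Members, substrate groups, marker and supporting-gene lists and thresholds were chosen with earlier results of these data known. Named genes were members past both thresholds whose larger mean was 0.5 or more, the highest of each substrate group in a cluster, those listed in 5 or more clusters and those past the adjusted p in both directions. A few genes that this rule or the lists take are counted but not reported here by name. Slc3a2, Slc5a9, Slc7a7, Slc7a8, Slc9a3, Slc9a8, Slc10a5, Slc15a3, Slc16a3, Slc17a5, Slc20a1, Slc35a5, Slc38a1 and Slc39a14, and Kap, Acsm3, Prlr, Miox, Ttc36, Gpx3, Umod, Wfdc15b, S100a8 and S100a9, are named beyond this rule, chosen once their values had been seen. Alternatives were other thresholds, pseudocounts and minimum means, and only members without the flag by family for acting inside the cell. Added after seeing the data was the use of members annotated to the plasma membrane only. Python 3.11.15, numpy 2.4.6, pandas 2.3.3 and matplotlib 3.10.9 were used.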

Additional observations from a re-analysis of the deposited data

Results flagged for a closer look

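For 24 solute carrier genes reported here, the log2 fold change in the authors' deposited table was above 0 in PT and below 0 in another cluster, with an adjusted p of at most 0.05 in both. This gave 47 differences, 24 with Marco, 17 with T, 5 with B and 1 with LOH. None of these differences was itself tested, since there was 1 library per group, and every cluster shares this library pair. The matching count with the adjusted p was not made over all genes. Without the adjusted p, 744 of all 2680 genes listed in both PT and Marco were higher in PT and lower in Marco. For carriers this was 32 of 44. With T the counts were 993 of 2925 genes and 45 of 59 carriers. Each value below is the log2 fold change in PT minus that in the other cluster, both from the authors' deposited table.

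The basolateral bicarbonate carrier Slc4a4 differed by 4.90 from Marco, 4.66 from T and 4.91 from B. The sulfate carrier Slc13a1 differed by 4.89, 3.97 and 4.67 from the same clusters. The corresponding values were 3.63, 3.79 and 3.54 for the heavy subunit Slc3a1 and 4.11, 3.55 and 3.05 for the organic cation exporter Slc47a1. Slc27a2, the fatty acid carrier, differed by 2.21 from LOH, 4.64 from Marco, 4.31 from T and 4.002 from B. It was the 1 carrier with opposite directions in PT and LOH that passed in both.

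A further 12 genes had opposite directions in PT and in both Marco and T. Slc10a2, the bile acid importer, differed by 4.96 from Marco and 3.58 from T, and the vitamin C carrier Slc23a1 by 4.71 and 4.88. Of the monocarboxylate carriers, Slc16a9 differed by 4.10 and 5.05, Slc16a12 by 4.21 and 4.04, and Slc16a4 by 3.61 and 3.67. The sulfate exchanger Slc26a1 differed by 3.53 and 4.49, and the dicarboxylate carrier Slc13a3 by 3.03 and 4.36. The glucose exit carrier Slc2a2 differed by 3.76 and 4.30, and the zinc exporter Slc30a1 by 3.09 and 3.14. Of the amino acid carriers, Slc1a1 differed by 3.83 and 3.32, Slc6a18 by 3.42 and 3.09, and Slc6a20b by 3.92 and 3.98.

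In the remaining 7 genes the opposite direction passed in Marco alone. The difference was 4.50 for the glucose cotransporter Slc5a1 and 3.60 for the inositol carrier Slc5a11. It was 3.57 for the creatine carrier Slc6a8, 3.15 for Slc7a9 and 2.75 for Slc6a19. It was 2.85 for the dicarboxylate carrier Slc13a2 and 2.84 for the peptide carrier Slc15a2.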

How the results depend on the processing

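No paired analysis was possible because each group has 1 library, and for the same reason no library could be left out. Counts of members past both thresholds stayed within 1.5 times their value at an adjusted p of at most 0.01, except for lower genes in LOH, where 5 became 3. With a log2 fold change of at least 1.5, the 46 higher and 3 lower genes in PT became 25 and 1. There, the higher counts by substrate became 3 for metals, 3 for nucleotide sugars, 2 for sugars, 1 each for bicarbonate, bile acids, phosphate and sulfate and 0 for chloride and organic cations, and the lower counts became 0 for amino acids and nucleotide sugars. With no minimum on the fold change, the lower genes in PT became 8. With no adjusted p, the higher and lower counts became 6 and 19 in LOH, 9 and 8 in endo, 7 and 63 in T and 1 and 47 in B, and the higher count in Marco became 18, so these counts rest on a test over cells. With members annotated to the plasma membrane only, the counts became 30 and 1 in PT, 3 lower in LOH, 2 higher in Marco and 9 lower in B, since fewer genes were counted.

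The median log2 ratio over the members grew with a smaller pseudocount, as adding 1 shrinks the ratio of low means. With 0.1 it was 0.89 in PT, -0.76 in LOH, 0.45 in endo, -1.32 in Marco, -1.14 in T and -1.66 in B. With 0.0001 it was 1.21, -0.98, 0.45, -2.04, -1.94 and -2.70. The median of 0.13 in endo became -0.10 with no minimum on the mean and -0.14 without genes flagged by family as acting inside the cell. It thus has no settled sign, and each of these settings changes which genes are counted. With members at a young mean of at least 1 in PT, the young median in B was 66.2% of PT. In endo this setting gave 81.1% (young) and 61.9% (senescent), the reverse of the order with all members. None of the 143 ratios of named genes past the adjusted p changed sign with either pseudocount. The formula fixes this in advance, since the larger mean stays larger, so it is no check of direction. Depth was unknown, so the precision of low means, such as the young mean of 0.0184 of Slc7a12 in PT, could not be given.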
